A study of Mus musculus with 4 samples.

Results

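The genes that bring proteins into mitochondria, fold them there and cut them were followed in mouse liver with and without the calcium uniporter gene Mcu, before and after removal of part of the liver. The members were chosen by name and not by their values. They are the 25 measured genes whose symbol starts with Tomm or Timm and a digit, and 15 genes added one by one (Samm50, Pam16, Grpel1, Hspa9, Hspd1, Hspe1, Trap1, Lonp1, Clpp, Clpx, Afg3l2, Yme1l1, Htra2, Pmpca and Pmpcb), so 40 of the 19505 named genes on the array. Each of the 40 was read by 1 probe set. For 37 of them the 4 arrays averaged log2 3.83 or more, the level that divides all named genes evenly by mean. Genes that reach it are called bright below. The other 3, Tomm20l, Tomm40l and Timm8a2, were dim and are given apart.

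By the protocol text all animals were male C57BL6J mice with floxed Mcu alleles (MCUloxp/loxp), injected at 10 to 12 weeks of age into the tail vein with a serotype 8 adeno-associated virus. The knockdown (KD) mice received AAV8-TBG-Cre, in which the TBG promoter, active in hepatocytes, drives Cre recombinase, so other liver cells keep Mcu. The control mice, labelled WT, were littermates that received AAV8-TBG-Null and therefore carry the floxed alleles and the virus too. The 0 h groups (WT_0h and KD_0h) are labelled as time controls, and the 30 h groups (WT_30h and KD_30h) are remnant liver taken 30 h after a 70% partial hepatectomy done 5 weeks after injection. Each group is 1 array, and the series text speaks of pools of 4 animals, so no value has an error, no difference has a replicate check and no test was run. No group had an operation without removal of liver, so in a 30 h minus 0 h difference surgery, time and lost liver mass cannot be told apart. The free-text descriptions of all 4 samples mention ethanol feeding, and that of KD_30h gives 1 h after surgery, so group and time were taken from the titles. The genotype labels also differ from the protocol text: the control is called Wild type, and the entry for both knockdown samples does not match floxed Mcu and is not reported here.

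Nearly all mitochondrial proteins are made in the cytosol as precursors. The TOM complex of the outer membrane takes them in, and from there the SAM complex inserts barrel proteins into the outer membrane, the small Tim proteins escort hydrophobic precursors between the membranes, the TIM22 complex inserts carriers into the inner membrane, and the TIM23 complex passes proteins with a presequence to the matrix, where an Hspa9-driven motor pulls them in. Processing peptidase removes the presequence, chaperonins fold the product, and the proteases of the matrix and inner membrane remove faulty proteins and cut regulators. In liver, hepatocytes are rich in mitochondria, and growth of the remnant calls for new mitochondrial protein.

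The arrays had similar medians, 3.75 to 3.84 on the log2 scale, and correlations over probe sets between 0.953 and 0.974. Their spreads were less alike, with a standard deviation of 1.96 in WT_30h and 1.83 to 1.88 on the other arrays. Mcu read 4.77 and 4.30 in control liver at 0 h and 30 h against 2.83 and 2.63 in the knockdown, lower at both times as the protocol text describes. All 8 measured hepatocyte markers were between 7.55 and 12.7 on every array, and their summed level on the linear scale ran from 22991 to 24174. The 9 Kupffer cell markers summed to 360.7 and 623.9 in control liver at 0 h and 30 h and to 511.4 and 513.2 in knockdown liver, and the 8 sinusoidal endothelial markers to 326.3, 283.6, 414.1 and 239.2; none of them was at 0. The nearly level Kupffer sum in knockdown liver covers markers that differed both ways. Of the 9, 6 were lower at 30 h and 3 higher, with a median log2 difference of -0.42 and a highest of 1.59. The part of these cell types in the results below was not tested. In whole liver, fewer cells of a type and less RNA per cell cannot be told apart.

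In control liver, most members were modestly higher 30 h after hepatectomy, and 1 was far lower. Of the 37 bright members 28 were above their 0 h level and 9 below it, with a median log2 difference of 0.28, against 0.10 for all 9759 bright genes, of which 58.2% were above 0. Hspd1, Tomm40, Afg3l2, Timm8a1, Timm17a and Timm23 were at least 1.5-fold higher, so 6 of 37 where 17.5% of bright genes were, and Clpx was the 1 member at least 1.5-fold lower, where 8.05% were. The share of members past 1.5-fold was thus close to the background upwards and below it downwards. No member was 2-fold higher, where 5.98% of bright genes were, and Clpx was the only one 2-fold lower, where 1.61% were. These values depend on the scale: after quantile normalization the members' median was 0.11 with 26 of 37 above 0, and all bright genes had a median of -0.03. Over median centring, quantile and cyclic loess normalization the lowest values were 0.57 for Hspd1, 0.52 for Afg3l2, 0.47 for Timm17a, 0.42 for Timm8a1 and 0.37 for Timm23, all under 0.585, the log2 of 1.5-fold. Tomm40 stayed past it in each, at 0.69 or more. Ranges given below as over the scalings include the value on the deposited scale.

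In knockdown liver the 30 h minus 0 h differences were mostly nearer 0 on the deposited scale. Of the bright members 21 were higher at 30 h and 15 lower, with a median of 0.04. All bright genes had a median of -0.04, with 46.2% above 0 and 53.1% below. The contrast with control liver depended on the scale. After median centring, quantile and cyclic loess normalization the members' knockdown median was 0.10, 0.076 and 0.0955, beside 0.16, 0.11 and 0.13 in control. No member was 1.5-fold higher, where 9.12% of bright genes were, and 3 were 1.5-fold lower (Clpx, Timm29 and Htra2), where 12.0% were. At the 2-fold level the figures were 0 members higher against 2.64% of bright genes and 1 lower, Clpx, against 2.74%. Both responses were above 0 in 20 bright members and below 0 in 8; 7 were above 0 in control and below 0 in knockdown liver, and Pmpcb alone went the other way. Of all bright genes, 31.1% were above 0 in both responses (members 54.1%) and 26.8% above 0 in control and below 0 in knockdown liver (members 18.9%). Pam16 was level in the knockdown (7.18 at both times).

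**Figure D1:**
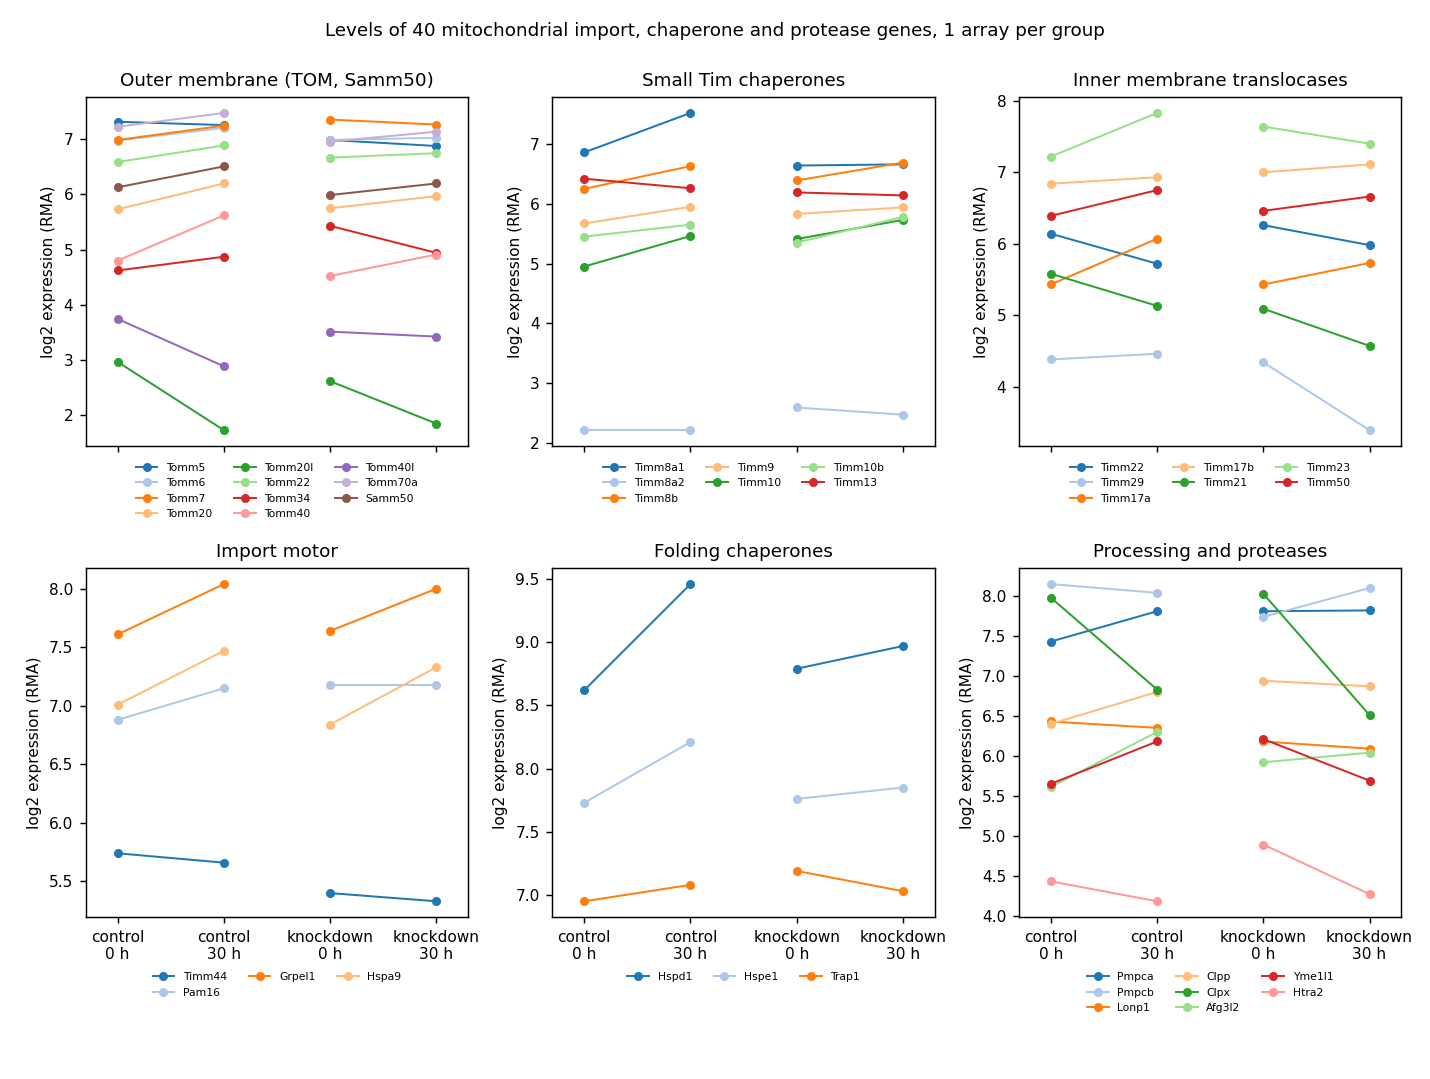
Log2 expression (RMA) of all 40 genes on the 4 arrays, in panels by role; points are single arrays and lines join 0 h and 30 h within a genotype, with a separate vertical scale in each panel. Clpx is lower at 30 h in both genotypes, Hspa9 and Grpel1 are higher in both, and Yme1l1 and Timm23 are higher in control liver and lower in the knockdown; heights of different genes are not comparable because each has its own probes.

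The entry gate of the outer membrane was a little higher at 30 h in control liver. The 8 bright genes counted here include Tomm34, a mainly cytosolic protein described below. Of the 8, 7 were above 0 in control liver (median 0.26) and 5 in the knockdown (0.06). Over the scalings the control responses of Tomm6, Tomm70a, Tomm7 and Tomm22 went down to 0.0013, 0.0125, 0.0275 and 0.06. Tomm40, the channel-forming barrel of the TOM complex, read 4.80 and 5.62 in control liver at 0 h and 30 h and 4.52 and 4.91 in the knockdown. It was thus highest in control liver at 30 h, 1.77-fold above 0 h (log2 difference 0.82) against 0.39 in the knockdown, and the knockdown lay 1.64-fold below control at 30 h (-0.71, or -0.58 at the mildest scaling, just short of 1.5-fold). The presequence receptor Tomm20 (5.73 and 6.20 in control, 5.75 and 5.97 in knockdown) and its partner receptor Tomm22 (6.59 and 6.89, 6.67 and 6.75) were also highest in control liver at 30 h, with smaller steps, and their 0 h arrays differed by no more than 0.08. Over the scalings knockdown minus control at 30 h ran from -0.23 to -0.07 for Tomm20 and from -0.14 to 0.05 for Tomm22. The highest array of Tomm22 thus depended on the scale.

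Tomm70a, the receptor for carrier precursors that come with cytosolic chaperones, read 7.23 and 7.48 in control and 6.96 and 7.14 in knockdown liver, so it was lower in the knockdown at both times (-0.27 and -0.34). The small subunits that steady the complex differed little at 30 h from 0 h: Tomm5 by -0.06 and -0.11, Tomm6 by 0.23 and 0.04, and Tomm7 by 0.26 and -0.09, control first. Samm50, the core of the sorting machinery for barrel proteins, read 6.13 and 6.51 in control and 5.99 and 6.20 in knockdown liver.

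Tomm34, a mainly cytosolic co-chaperone that binds precursors, stood out at 0 h. It read 4.62 in control and 5.43 in knockdown liver before surgery, and 4.87 and 4.94 at 30 h. The knockdown was thus 1.75-fold higher at 0 h (0.81) and level with control at 30 h (0.07). The dim paralogs were Tomm40l (3.74 and 2.88 in control, 3.51 and 3.42 in knockdown) and Tomm20l (2.96 and 1.72, 2.61 and 1.84), both under the brightness minimum on every array.

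The window before the Tomm40 start site is shown because this gene was the import channel with the largest control response. Windows of 250 bases before the start were read from the RefSeq promoter table (GRCm38.p6), which held one or more for 34 of the 40 members, 37 windows in all. Letters searched on both strands were CCAAT (the CCAAT box), CCGGAAG (a core bound by ETS factors such as GABPA), CACGTG (E-box), GAANNTTC or TTCNNGAA (paired units of the heat shock element), TTGCATCA (ATF and CHOP composite) and the 10-letter NRF1 motif, GCGCA then any base then GCGC. In Tomm40 the window lies at chr7:19715430-19715679, minus strand, is printed like the others 5′ to 3′ on the gene's strand, and its capitals mark 5 CCAAT boxes, all on the gene's strand. CCAAT was in 11 of the 37 member windows (29.7%) in 33.8% of all 32851 windows and in 35.4% of the windows of bright genes.

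Tomm40: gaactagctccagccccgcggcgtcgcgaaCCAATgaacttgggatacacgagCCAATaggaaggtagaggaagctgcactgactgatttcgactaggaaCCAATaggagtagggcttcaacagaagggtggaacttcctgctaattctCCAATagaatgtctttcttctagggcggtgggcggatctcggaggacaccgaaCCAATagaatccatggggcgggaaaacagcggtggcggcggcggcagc

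The small Tim chaperones, which form rings that carry hydrophobic precursors across the space between the membranes, were mostly higher at 30 h in both genotypes. Of the 6 bright ones 5 were above 0 in control liver (median 0.33) and 5 in the knockdown (0.21). Timm10 (4.95 and 5.46 in control, 5.41 and 5.73 in knockdown), Timm9, its ring partner (5.67 and 5.95, 5.83 and 5.94), and Timm8b (6.25 and 6.63, 6.39 and 6.69) were higher at 30 h in both genotypes. Timm10b, which binds the ring to the carrier translocase, read 5.45 and 5.65 in control and 5.35 and 5.78 in knockdown liver. Timm13 was slightly lower at 30 h (-0.16 and -0.05).

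Timm8a1, the partner of Timm13, differed from the rest of this group. It read 6.86 and 7.52 in control liver and 6.64 and 6.66 in the knockdown, so only the control 30 h array was high. The control response was 1.58-fold (0.66) against 0.02 in the knockdown, and at 30 h the knockdown was 1.82-fold below control (-0.86, the 407th lowest of the bright genes; between -0.86 and -0.68 over the scalings). Its dim paralog Timm8a2 stayed between 2.21 and 2.59.

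The carrier translocase had a member with one of the largest genotype differences. Timm29, a subunit of the TIM22 complex, read 4.38 and 4.46 in control liver and 4.34 and 3.39 in the knockdown, so the knockdown 30 h array was the only low one. The knockdown was 2.10-fold below control at 30 h (-1.07, the 147th lowest of 9759) while the genotypes were alike at 0 h (-0.04). That low value lies under the brightness minimum of 3.83. Timm22, the channel itself, was lower at 30 h in both genotypes (6.14 and 5.72 in control, 6.26 and 5.98 in knockdown).

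Of the presequence translocase, Timm23 and Timm17a were the genes with the larger control responses. Timm23, which forms its core with a Timm17 protein, read 7.22 and 7.83 in control liver and 7.64 and 7.40 in the knockdown. The knockdown was thus above control before surgery (0.42) and below it at 30 h (-0.43), and the responses had opposite signs (0.61 and -0.24). Timm17a read 5.43 and 6.07 in control and 5.43 and 5.73 in knockdown liver, identical at 0 h and higher in control at 30 h.

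The other subunits of this translocase had smaller control responses or were lower at 30 h. The paralog Timm17b was nearly flat, at 6.84, 6.93, 7.0 and 7.11 in WT_0h, WT_30h, KD_0h and KD_30h. Timm50, the receptor that hands precursors on from the outer membrane, was higher at 30 h in both (6.39 and 6.75 in control, 6.46 and 6.66 in knockdown). Its steps were 0.36 and 0.20, the larger in control on the deposited scale. Over the scalings its control response went down to 0.12 and its knockdown response up to 0.27, and their difference ran from -0.16 to 0.12. For Timm23 and Timm17a the control step stayed the larger. Timm21, which links the translocase to TOM and to the respiratory chain, was lower at 30 h in both (5.58 and 5.13 in control, 5.09 and 4.57 in knockdown) and lower in the knockdown at both times (-0.49 and -0.56).

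The window of Timm23 is shown for comparison with that of Yme1l1 given further on, since both genes were higher at 30 h in control liver and lower in the knockdown. It lies at chr14:32201892-32202141, minus strand, and its capitals mark 1 ETS core on the opposite strand, 47 to 41 bases before the start. The ETS core was in 15 of 37 member windows (40.5%, 14 genes) against 6.91% of all windows and 12.7% of the 10077 windows of bright genes. Some of the member windows overlap, those of Tomm34 and those of Hspd1 and Hspe1, so cores they share count more than once. Member windows had a median GC content of 58.0% and all windows 52.4%. A match describes the letters of the window and was not set against any binding data.

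Timm23: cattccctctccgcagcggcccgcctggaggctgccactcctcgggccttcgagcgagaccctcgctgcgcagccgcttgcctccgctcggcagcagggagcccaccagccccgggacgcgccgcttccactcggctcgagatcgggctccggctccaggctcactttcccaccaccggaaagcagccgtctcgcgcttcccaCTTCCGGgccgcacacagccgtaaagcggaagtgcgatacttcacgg

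In the import motor, 2 genes were higher at 30 h in both genotypes, by similar steps on the deposited scale. Hspa9, the matrix Hsp70 also called mortalin, read 7.01 and 7.47 in control liver and 6.84 and 7.33 in the knockdown, a response of 0.46 and 0.49. Grpel1, the nucleotide exchange factor that resets Hspa9, read 7.61 and 8.04 in control and 7.64 and 8.0 in knockdown liver, a response of 0.43 and 0.36. Both genes were thus higher on the 2 arrays at 30 h than on the 2 at 0 h, by less than 1.5-fold. The likeness of the genotypes depended on the scale: over the scalings the control response went down to 0.23 for Hspa9 and 0.17 for Grpel1, while the knockdown response ran from 0.49 to 0.55 and from 0.36 to 0.42. The difference of responses was then up to 0.31 for Hspa9 and 0.21 for Grpel1.

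Of the motor's remaining members, Timm44 varied with genotype more than with time on the deposited scale, and Pam16 about as much with each. Timm44, which tethers Hspa9 to the channel, read 5.74 and 5.66 in control and 5.40 and 5.33 in knockdown liver, so it was lower in the knockdown at both times (-0.34 and -0.33). Pam16, which holds the J-protein of the motor in check, was lowest in control liver at 0 h (6.88) and lay between 7.15 and 7.18 on the other arrays.

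The chaperonin pair of the matrix was higher at 30 h, by more in control liver. Hspd1, the Hsp60 barrel, read 8.62 and 9.46 in control liver and 8.79 and 8.97 in the knockdown. Hspe1, the Hsp10 lid that closes it, read 7.73 and 8.21 in control and 7.76 and 7.85 in knockdown liver. On the deposited scale the order of the 4 arrays was the same for both genes: control at 0 h lowest, then knockdown at 0 h, knockdown at 30 h and control at 30 h. Over the scalings knockdown minus control at 0 h ran from 0.02 to 0.17 for Hspd1 and from -0.08 to 0.03 for Hspe1. The order of the 0 h arrays of Hspe1 thus depended on the scale. The control response was 1.79-fold for Hspd1 (0.84) and 1.39-fold for Hspe1 (0.48), against 0.18 and 0.09 in the knockdown. Trap1, the mitochondrial Hsp90, stayed between 6.95 and 7.19.

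Hspd1 and Hspe1 lie head to head, so the stretch between their start sites is shown. In RefSeq (GRCm38.p6) the start of Hspe1 on the plus strand and one of the Hspd1 starts on the minus strand are 216 bases apart. The other listed Hspd1 start lies 95 bases past the Hspe1 start, so the genes overlap from there. The stretch is at chr1:55087933-55088147 and is printed in the direction of Hspe1. Its one block of capitals, 89 to 71 bases before the Hspe1 start, holds 3 overlapping matches to the heat shock element units and 2 overlapping ETS cores, one on each strand, which share letters with them. Heat shock units were in 7 of 37 member windows (18.9%) and 12.8% of all windows. The Hspe1 window and 1 Hspd1 window overlap by 215 bases, so the matches of this block count in both. The share among windows of bright genes was 10.2%. The NRF1 motif was in 3 member windows (8.11%), 3.74% of all windows and 7.77% of those of bright genes, so its share in the members was near that of bright genes. The E-box was in 6 (16.2%), 6.02% and 8.35%, and the ATF and CHOP composite in 0 member windows and 0.79% of all windows.

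Hspd1 and Hspe1: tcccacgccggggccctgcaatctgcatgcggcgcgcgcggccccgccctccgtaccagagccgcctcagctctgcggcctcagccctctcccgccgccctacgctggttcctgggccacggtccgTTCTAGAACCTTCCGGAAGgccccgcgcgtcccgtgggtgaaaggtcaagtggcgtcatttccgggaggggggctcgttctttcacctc

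The processing peptidase, which removes presequences, is made of 2 different subunits whose transcripts differed in pattern. Pmpca, the subunit that grips the substrate, was lowest in control liver at 0 h, at 7.43, and lay between 7.81 and 7.82 on the other arrays. Pmpcb, the catalytic subunit, was lowest in knockdown liver at 0 h, at 7.74, and read 8.15, 8.04 and 8.10 in WT_0h, WT_30h and KD_30h. At 0 h the knockdown was therefore higher for Pmpca (0.38) and lower for Pmpcb (-0.41), and at 30 h the genotypes were within 0.06 for both.

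The matrix protease ClpXP held the largest difference between times of all bright members. Clpx, the ATPase that unfolds substrates and feeds them to the peptidase, and which also activates the first enzyme of heme synthesis, read 7.98 and 6.83 in control liver and 8.03 and 6.51 in the knockdown. Both 30 h arrays were thus far below both 0 h arrays, 2.22-fold in control (-1.15, the 83rd lowest of 9759 bright genes) and 2.87-fold in the knockdown (-1.52, the 57th lowest). The genotypes differed by 0.05 at 0 h and -0.32 at 30 h. Over the scalings the control value ran from -1.43 to -1.15 and the knockdown value from -1.52 to -1.46, so the call did not depend on them.

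Clpp, the peptidase that Clpx feeds, was not lower at 30 h in control liver. It read 6.40 and 6.80 in control liver and 6.94 and 6.87 in the knockdown, so control liver at 0 h was the low array (knockdown minus control 0.54 at 0 h and 0.07 at 30 h). Lonp1, the other soluble protease of the matrix, was flat over time (-0.08 and -0.09) and slightly lower in the knockdown (-0.25 and -0.26). The erythroid markers Alas2, Epb42, Klf1 and Slc4a1 summed to 194.9 and 103.5 in control liver at 0 h and 30 h. In the knockdown they summed to 162.9 and 103.1, so the sum was lower at 30 h in both, as Clpx was. All 4 markers were lower at 30 h in control liver, with a median log2 difference of -0.85. In the knockdown 3 were lower and 1 higher, with a median of -0.18 and a lowest of -1.17. Their part in the Clpx values was not tested.

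The window of Clpx is shown because Clpx had the largest difference. It lies at chr9:65294010-65294259, plus strand, and its capitals mark 1 CCAAT box on the opposite strand, 136 to 132 bases before the start; no other letters searched were found in it.

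Clpx: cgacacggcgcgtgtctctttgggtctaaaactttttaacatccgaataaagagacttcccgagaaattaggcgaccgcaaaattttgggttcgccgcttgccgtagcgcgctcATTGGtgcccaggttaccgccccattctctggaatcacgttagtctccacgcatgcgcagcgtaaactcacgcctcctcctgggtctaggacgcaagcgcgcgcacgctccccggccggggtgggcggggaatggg

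The 3 proteases of the inner membrane and intermembrane space did not share a course. Their median response was 0.53 in control and -0.52 in knockdown liver, and both are the values of Yme1l1. Afg3l2 was higher at 30 h in both genotypes and Htra2 lower in both. The median difference of responses over the 3 genes was -0.57, the value of Afg3l2. Yme1l1, the AAA protease that faces the intermembrane space and cuts the fusion protein Opa1, read 5.65 and 6.18 in control liver and 6.21 and 5.69 in the knockdown. It was 1.44-fold higher at 30 h in control and 1.43-fold lower in the knockdown. The high arrays were therefore control at 30 h and knockdown at 0 h, and the difference of responses was 2.07-fold (-1.05, the 600th lowest of 9759). Afg3l2, the matrix-facing AAA protease, read 5.61 and 6.30 in control and 5.92 and 6.04 in knockdown liver, a response of 0.69 against 0.12. Htra2, a serine protease of the intermembrane space that can promote cell death once released, read 4.43 and 4.18 in control and 4.89 and 4.27 in knockdown liver, so it was highest in the knockdown before surgery. Its knockdown response of -0.62 was 1.54-fold, and -0.56 at the mildest scaling.

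The Yme1l1 window lies at chr2:23156255-23156504, plus strand. Its capitals mark a CCAAT box 134 to 130 bases before the start and ETS cores at 73 to 67 and 19 to 13 bases before it, all 3 on the gene's strand.

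Yme1l1: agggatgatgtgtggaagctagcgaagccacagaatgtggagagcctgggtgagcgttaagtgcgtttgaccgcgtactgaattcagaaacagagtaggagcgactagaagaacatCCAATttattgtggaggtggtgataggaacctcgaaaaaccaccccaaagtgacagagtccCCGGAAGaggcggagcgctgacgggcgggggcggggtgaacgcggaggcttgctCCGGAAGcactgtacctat

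**Figure D2:**
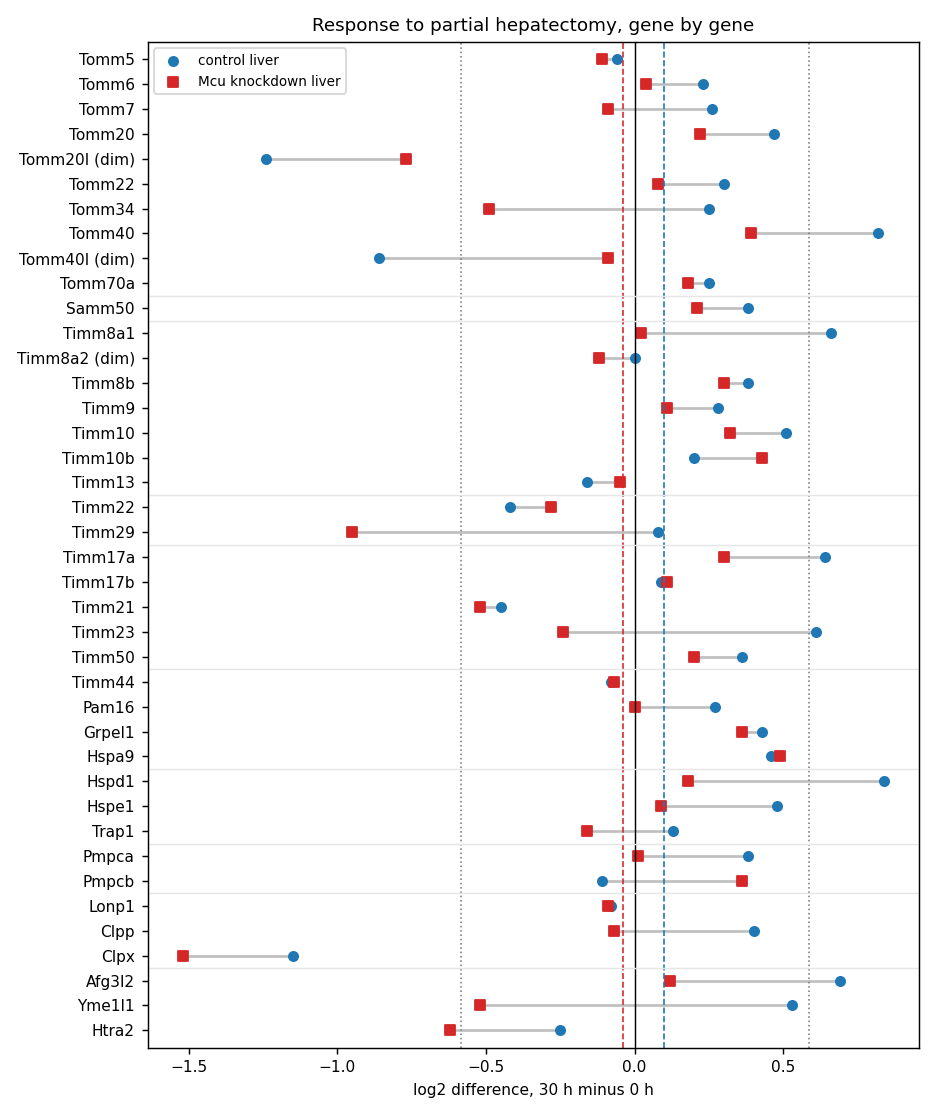
Log2 difference, 30 h minus 0 h, for each member in control liver (blue circles) and knockdown liver (red squares), in order of role; dotted lines stand at 1.5-fold and dashed lines at the median of all bright genes in each genotype (0.10 and -0.04). Clpx lies farthest left among the bright genes, at -1.15 and -1.52, the pairs of Hspa9 and Grpel1 nearly coincide on this scale, and those of Yme1l1, Timm29 and Timm23 lie far apart.

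Set against each other at one time, the genotypes differed little in these genes. At 0 h 23 bright members (62.2%) were higher in the knockdown and 13 (35.1%) lower, with a median of 0.05 beside 0.06 for all bright genes. Of all bright genes 56.7% were higher and 42.2% lower. Tomm34 alone was 1.5-fold higher, where 7.70% of bright genes were, and none was 1.5-fold lower, where 4.49% were; Yme1l1 (0.56) and Clpp (0.54) followed, and Timm21 (-0.49) and Pmpcb (-0.41) were the lowest. None of the members differed by 2-fold at 0 h, against 1.25% of bright genes higher and 0.635% lower. At 30 h 12 members (32.4%) were higher and 25 (67.6%) lower, with a median of -0.14 beside -0.11. Of all bright genes 37.8% were higher and 61.2% lower. No member was 1.5-fold higher (6.31% of bright genes), and Timm29, Timm8a1 and Tomm40 were 1.5-fold lower (3 of 37, where 12.5% were); Timm29 was also 2-fold lower, where 2.16% were and 1.14% were 2-fold higher. The signs of these medians were not stable: after quantile normalization they were -0.04 at 0 h and 0.04 at 30 h.

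The difference between the genotypes' responses, which uses all 4 arrays, was below 0 in 30 bright members and above 0 in 7. Its median was -0.22 against -0.18 for all bright genes, of which 63.2% were below 0, and after cyclic loess normalization 18 members were below 0 and 19 above with a median of 0.0066. Yme1l1, Timm29, Timm23, Tomm34, Hspd1 and Timm8a1 were past 1.5-fold in the negative direction (6 of 37, where 22.5% of bright genes were), and none in the positive (9.63%). Past 2-fold were Yme1l1 and Timm29 (7.43% of bright genes), with none in the positive direction (3.24%). Only Yme1l1 and Timm29 of these 6 stayed past 1.5-fold under median centring, quantile and cyclic loess normalization; the mildest values were -0.57 for Timm23, -0.56 for Tomm34, -0.42 for Hspd1 and -0.37 for Timm8a1. Kupffer markers had a median of -0.75 in the same contrast with 8 of 9 below 0, and sinusoidal endothelial markers a median of -0.875 with 6 of 8 below 0. Their part in the members' values was not tested.

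**Figure D3:**
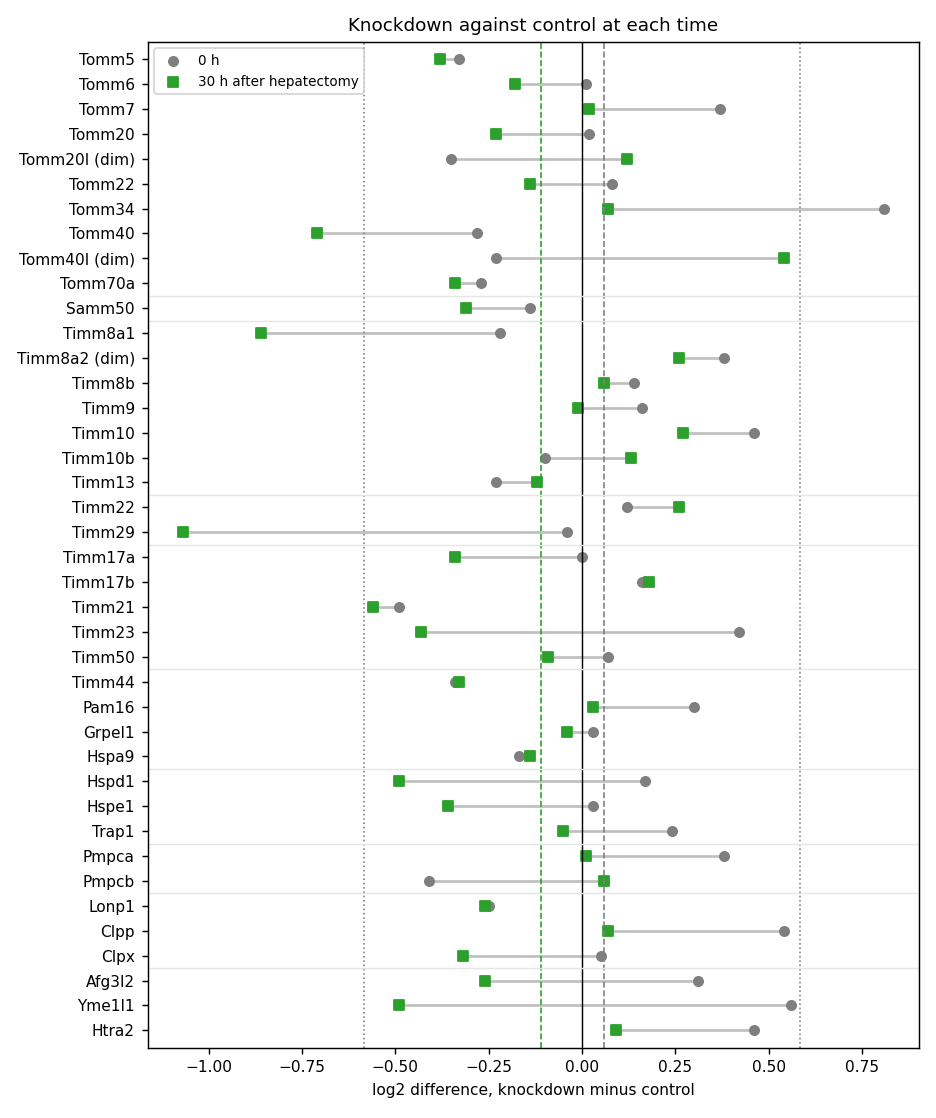
Log2 difference, knockdown minus control, for each member at 0 h (grey circles) and 30 h (green squares), in order of role; dotted lines stand at 1.5-fold and dashed lines at the median of all bright genes at each time (0.06 and -0.11). Tomm34 is the member farthest right at 0 h (0.81), and Timm29, Timm8a1 and Tomm40 lie farthest left at 30 h.

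Of 36 other listed genes of import and quality control, 33 were measured and 28 were bright. In control liver their median was 0.27, and 9 (32.1%) were at least 1.5-fold higher at 30 h, beside 16.2% of the members and 17.5% of all bright genes; 1 was lower. In knockdown liver their median was -0.10 with 17 of 28 below 0, and 1 was 1.5-fold higher and 1 lower, beside backgrounds of 9.12% and 12.0%. In control liver Ppif, the matrix cyclophilin that sets the permeability transition (1.23), Atad1, which extracts misplaced proteins from the outer membrane (1.04), and Dnajc11 (0.99) were the highest, against 0.41, -0.18 and -0.38 in the knockdown. Grpel2, the paralog of Grpel1, was higher in both (0.68 and 0.82). The outer membrane protein Mtch1 was the lowest in control liver (-0.82) and level in the knockdown (0.07). The 5 bright subunits of MICOS, the complex that shapes the cristae and touches Samm50, were all above 0 in control liver (median 0.43) and 4 of 5 below 0 in the knockdown (-0.21), with Chchd3 at 0.69 and -0.21.

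Other gene groups of the same organelle lay near the members. The 75 bright mitochondrial ribosomal protein genes had medians of 0.17 in control and -0.03 in knockdown liver at 30 h, and the 86 bright genes of the respiratory chain and ATP synthase 0.14 and -0.15. The latter list was taken by symbol and also holds assembly factors such as Ndufaf4. The members' medians of 0.28 and 0.04 were higher than those of both lists in each genotype, a description of these arrays with no test. Among genes above percentile 75 of mean expression, which hold 32 of the 37 bright members, the median control response was 0.18.

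**Figure D4:**
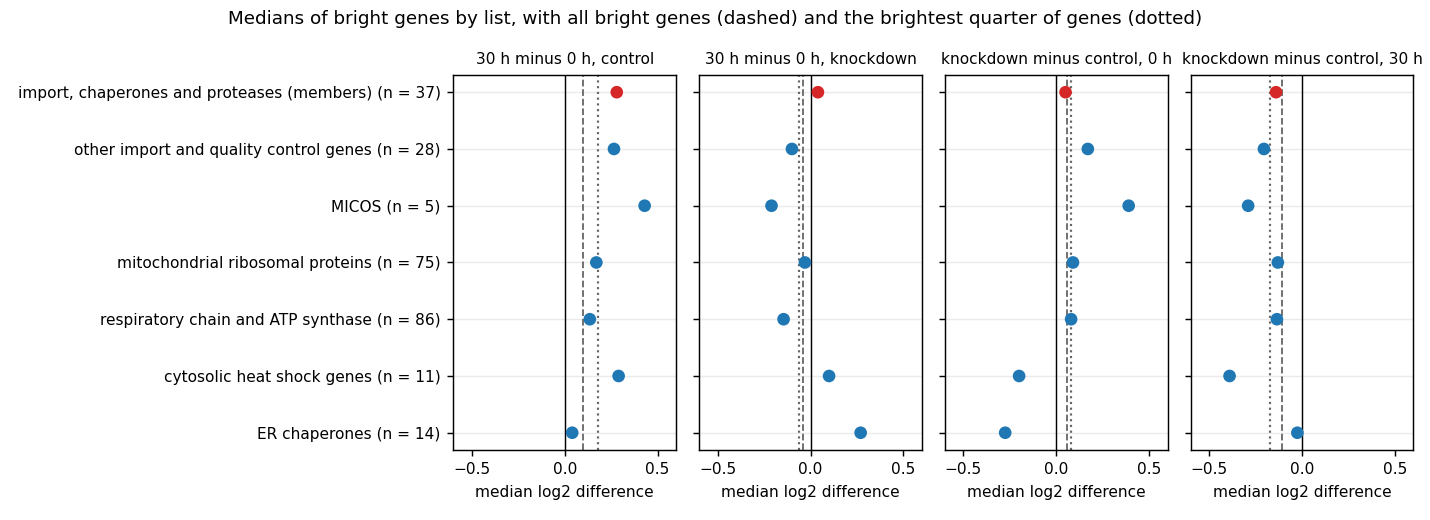
Median log2 difference of the bright genes of each list in the 4 pairwise comparisons, with the members in red; dashed lines mark the median of all bright genes and dotted lines that of genes above percentile 75 of mean expression. The members sit at 0.28, 0.04, 0.05 and -0.14 from left to right, to the right of both lines in the 30 h minus 0 h panels and between or near them in the others.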

How the data were processed

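The authors deposited log2 expression for each probe set; per the submitters' processing notes the authors used Expression Console from Affymetrix and its RMA method. Its version and settings are not given in the sources read. RMA corrects background and equalises arrays, which removes any shift common to all genes. The values have 2 decimals; no detection call was used, and no sequencing depth applies, so the number of arrays limits precision.

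Of 22206 probe sets, 19572 had a gene symbol in the platform annotation, giving 19505 genes; the brightest probe set stood for a gene with several. All 40 members matched an Entrez ID of GRCm38.p6. Differences were taken between arrays, and counted at 1.5-fold and 2-fold among the 9759 bright genes. Values of different genes come from different probes and are not compared. Groups came from the titles.

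The members, gene lists, motifs, thresholds and alternatives were chosen with earlier results of these data known. Every member could be named, with all 4 values for those 1.5-fold different or among the 3 largest differences either way; of other lists, up to 3 highest and 3 lowest genes per comparison. Alternatives were other thresholds and filters, the mean of probe sets, median centring, and quantile and cyclic loess normalization (limma 3.58.1 in R 4.3.3). The counting was checked on simulated data. The genotype label of the knockdown samples, which conflicts with the protocol text, is not reported.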

Additional observations from a re-analysis of the deposited data

Results flagged for a closer look

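In 4 bright members the responses of the genotypes had opposite signs and differed by at least 1.5-fold; with 1 array per group the difference was not tested. That is 10.8% of the 37 bright members, where 2194 of the 9759 bright genes (22.5%) met the same criteria, so the 4 are not set apart from the background by this count. Yme1l1 differed by -1.05 (control 0.53, knockdown -0.52), Timm29 by -1.03 (0.08 and -0.95), Timm23 by -0.85 (0.61 and -0.24) and Tomm34 by -0.74 (0.25 and -0.49). The small control response of Timm29 changed sign over the scalings (-0.04 to 0.11).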

How the results depend on the processing

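With 1 array per group no spread is known, so a median was called unmoved within 0.1 with the same sign, and a count within 1.5 times. Of the values of single genes under the alternatives, 441 stayed within these limits and 359 did not. The 441 include every value under the mean of probe sets, which could not move because each of the 40 members has 1 probe set. The 359 all come from median centring, quantile and cyclic loess normalization. No direction of a called value reversed. No paired analysis was possible because each group is 1 array.

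In the control response, the 6 members at least 1.5-fold higher became 0 at 2-fold, 2 after median centring, 1 after quantile and 2 after cyclic loess normalization. The 1 lower became 3 with dim genes and 2 after quantile normalization, and the median of 0.28 became 0.16, 0.11 and 0.13 under the 3 scalings in that order. In the knockdown response the 3 lower became 1 at 2-fold and 1 above percentile 75. At 0 h the 1 member higher in the knockdown became 0 at 2-fold and 0 above percentile 75, and the median of 0.05 became -0.0375 (quantile) and -0.0417 (cyclic loess). At 30 h the 3 lower became 1 at 2-fold and 1 above percentile 75, and the median of -0.14 became -0.01, 0.035 and 0.039 under the 3 scalings.

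For the difference of responses, the 0 members 1.5-fold higher became 1 with dim genes (Tomm40l) and 1 under each scaling (Pmpcb). The 6 lower became 2 at 2-fold and 3 under each scaling, and the median of -0.22 became -0.04, -0.0013 and 0.0066. The scalings set the median of all bright genes near 0, so directions of the list between genotypes rest on the deposited scale. Timm29 in KD_30h (3.39) and the 3 dim genes lie under the brightness minimum, and no detection call was used.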

Other observations

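The transcription factors and coactivators that set the supply of mitochondrial proteins differed among themselves. Of the 10 bright genes on this list, Ppargc1a, the coactivator of mitochondrial biogenesis, was higher at 30 h in both genotypes (4.88 and 6.65 in control liver, 4.86 and 6.29 in the knockdown). Tfam, which packs and transcribes mitochondrial DNA, was higher by 0.56 and 0.57. Nrf1 differed by 0.61 in control and -0.17 in the knockdown, and by -0.98 between the genotypes at 30 h. Myc, a growth regulator that also drives mitochondrial genes, went the other way, with 4.43 and 4.56 in control and 3.88 and 5.54 in knockdown liver, a response of 0.13 and 1.66 and a difference of 0.98 between the genotypes at 30 h. Atf5, a regulator of the mitochondrial unfolded protein response, read 7.57 and 7.18 in control and 7.30 and 6.91 in knockdown liver, so it was lower at 30 h in both. Ddit3, which encodes CHOP, differed by -0.42 and -0.21.

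Chaperones of other compartments took different courses. The 11 bright cytosolic heat shock genes had medians of 0.29 in control and 0.10 in knockdown liver, with Hspa4l (0.93 and -0.18), Hsp90aa1 (0.83 and 0.43) and Stip1 (0.68 and 0.30) the highest in control. The 14 ER chaperones had medians of 0.04 and 0.27, the larger in the knockdown, with Creld2 (-0.26 and 1.25) and Dnajb9 (-0.54 and 0.47) differing most.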
